A study of Mus musculus with 5 samples.

Results

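The genes described here were 10 mouse genes of the innate response to foreign RNA: the oligoadenylate synthetase (OAS) genes *Oas1a*, *Oas2* and *Oas3*, the OAS-like genes *Oasl1* and *Oasl2*, the RIG-I-like receptor genes *Ddx58*, *Ifih1* and *Dhx58*, and the sensor genes *Zbp1* and *Eif2ak2*. They were chosen by symbol, and all 10 were among the 27726 genes common to the count tables of 5 libraries. The study asked how a tumour in the body changes group 2 innate lymphoid cells (ILC2s), lymphocytes without antigen receptors that secrete type 2 cytokines such as interleukin 5 (IL-5) and IL-13. Every library held single-cell RNA from lung ILC2s of wild-type female C57BL/6 mice, with cells of 5 mice pooled, sorted as lineage-negative cells with ST2, CD127, Thy1.2 and CD45. Naïve ILC2s (1 library) came fresh from mice without a tumour. Ta-non-activated ILC2s (2 libraries, weeks 2 and 3) came fresh from mice bearing subcutaneous TC1 tumour cells, a single transplanted line. Ta-activated ILC2s (2 libraries, weeks 2 and 3) came from mice with the same tumour and were kept for 7 days in culture with IL-2, IL-33 and TSLP at 10 ng/mL each. No cultured library of naïve ILC2s was analysed here, so culture, its cytokines and the tumour cannot be told apart in the ta-activated cells.

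Cells use these proteins to recognise double-stranded or otherwise unusual RNA in the cytosol. Active OAS enzymes answer such RNA by making short adenylate chains that act as a second messenger, RIG-I-like receptors signal through the mitochondrial adaptor MAVS to induce interferons, and the kinase PKR (encoded by *Eif2ak2*) stops translation. All are also known as interferon-stimulated genes, whose transcription rises when type I or type III interferon activates the transcription factor complex ISGF3.

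After filtering for at least 200 genes and under 5% mitochondrial counts, 16530 of 18628 barcodes remained, between 1601 and 6389 per library, with median depths from 4396 to 16090 unique molecular identifiers (UMIs, counted RNA molecules). Library pairs shared at most 8 barcodes. All 10 ILC2 markers checked were detected in every library. The ta-non-activated week 3 library stood apart from its label: its summed ILC2 markers reached 1905 counts per 1000000 UMIs (CPM) and its summed T cell or thymocyte markers 5944 CPM, whereas in the other 4 libraries ILC2 markers ranged from 8663 to 11677 CPM and T cell markers from 289 to 1146 CPM. In it 850 of 1601 barcodes (53.1%) carried at least 2 UMIs of *Cd3d* and *Cd3e* together and are called T-cell-like here. The same rule marked 476 naïve, 20 week 2 ta-non-activated, and 106 and 50 ta-activated barcodes. In those, ILC2 markers exceeded T cell markers: 6070 against 3127 CPM in naïve and 8032 against 1184 CPM in week 2 ta-non-activated barcodes. The ta-activated ones had 7543 against 2111 and 7928 against 1336 CPM. Outside the week 3 fresh library the name thus states only the rule. Values without such barcodes are given beside the results below whose order, direction or size they change most. The 751 other barcodes of the week 3 fresh library had a median depth of 2823 UMIs. Their ILC2 markers summed to 4976 CPM and their T cell or thymocyte markers to 1707 CPM. These were still the lowest and the highest of all libraries without T-cell-like barcodes, so this filter may leave T cells in. A level is given in CPM, the share of a library's UMIs that a gene holds, with its exact 95% Poisson interval; the intervals cover counting error only. The libraries of a group are pools of mice taken at different weeks, so week and replicate are the same thing and p-values measure the spread between these pools.

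All 10 genes were higher in both ta-activated libraries than in any of the 3 fresh libraries. The gap, the lowest cultured level over the highest fresh level, ran from 1.67 times for *Ddx58* to 9.48 times for *Oas3*. Of 12935 genes tested against all fresh ILC2s, 17.7% were placed this way and 4.83% with a gap of at least 2-fold, which 9 of the 10 genes had. Summed over the 10 genes, levels were 87.4 CPM in naïve cells, 102 and 98.2 CPM in ta-non-activated cells of weeks 2 and 3, and 775 and 1154 CPM in ta-activated cells of weeks 2 and 3. Without T-cell-like barcodes the sums were 85.9, 102, 76.8, 786 and 1157 CPM in the same order, and all 10 genes were placed the same way. Of the 9 marker lists for other cell types, those for endothelial and dendritic cells separated cultured from fresh libraries. The endothelial list was lower in culture (11.9 and 11.1 CPM, against 18.4 to 88.2 CPM in fresh libraries), and its part in the results was not tested. The dendritic list was higher: its 5 genes summed to between 49.7 and 342 CPM in the fresh and to 954 and 1242 CPM in the cultured libraries. Nearly all of this was *Bst2*, itself an interferon-stimulated gene (954 and 1241 CPM in culture). *Siglech*, *Flt3*, *Xcr1* and *Itgax* each stayed at or below 0.494 CPM in all 5 libraries, with *Siglech* at 0 UMIs in 4 of them and 1 UMI in the cultured week 3 library.

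**Figure D1:**
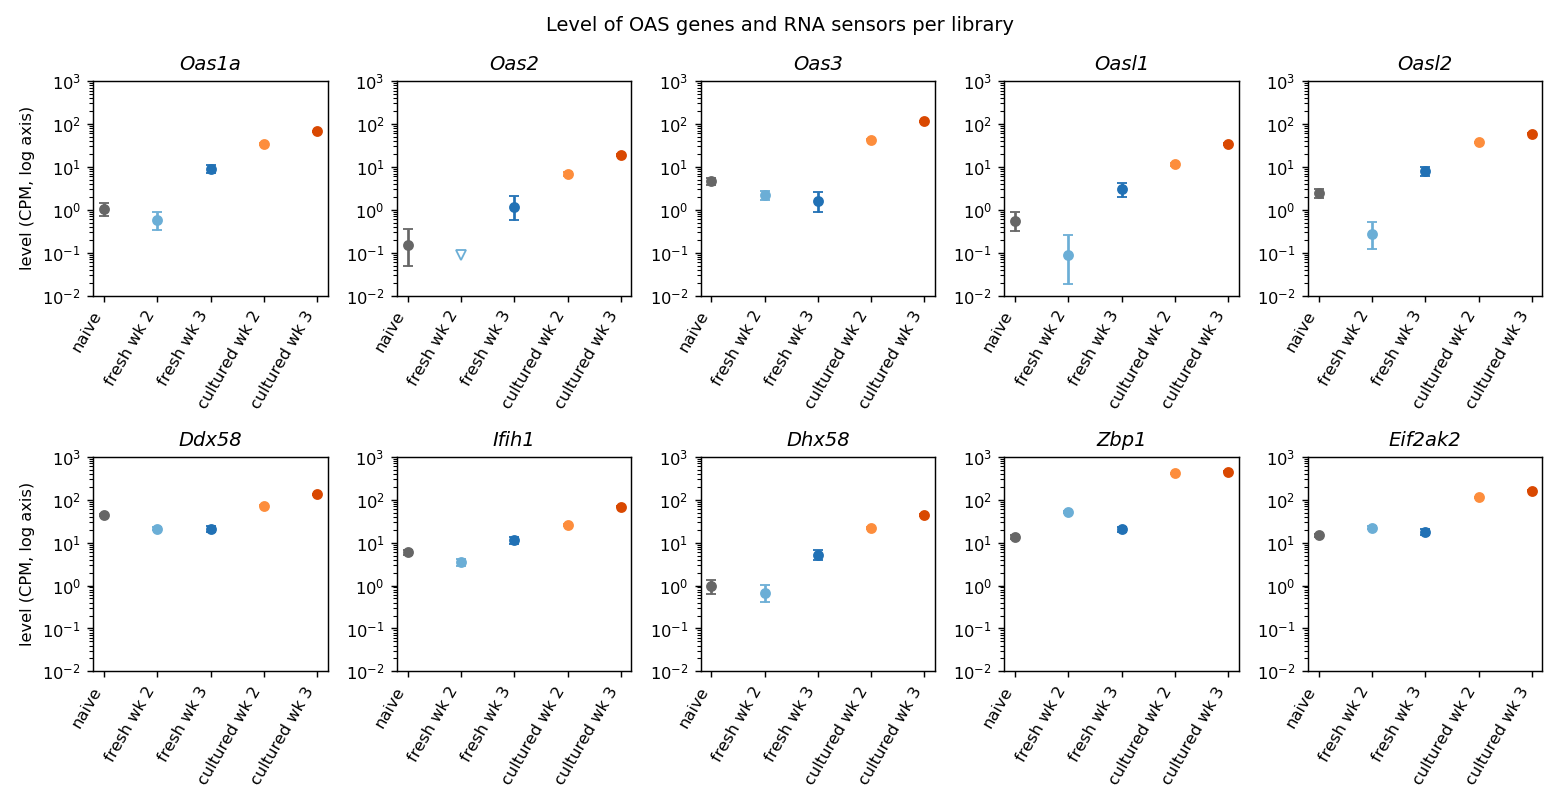
Level of each gene (CPM, log axis) in the naïve, the 2 ta-non-activated (fresh) and the 2 ta-activated (cultured) libraries, with exact 95% Poisson intervals; the open triangle marks a count of 0, drawn at the level of 3 counts. In every panel both cultured libraries lie above all 3 fresh libraries, with the narrowest gap for *Ddx58*.

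*Oas1a*, *Oas2* and *Oas3* encode RNA-activated synthetases and lie within 1 cluster with the other Oas1 copies on chromosome 5 (GRCm38), on the minus strand, *Oas2* at chr5:120730333-120749853, *Oas3* at chr5:120753098-120777661 and *Oas1a* at chr5:120896256-120907521. The stretches shown here, from the RefSeq promoter table (GRCm38.p6) and read on the gene's strand, hold the only matches among the 10 genes to GAAANNGAAA, a core of the element that ISGF3 binds; capitals mark the matches, which overlap in *Oas1a*.
Oas1a promoter, chr5:120907526-120907565, minus strand: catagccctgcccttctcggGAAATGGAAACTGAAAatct
Oas3 promoter, chr5:120777705-120777754, minus strand: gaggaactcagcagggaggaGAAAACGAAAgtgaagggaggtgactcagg
Both strands of the 250 bases before the start were searched, and 7 of the 10 genes had an entry. The motif occurred in 2 of these 7 genes and in 3.46% of the 27025 genes in the table. A match is a string of letters and not a binding site, and the windows of *Oasl1*, *Oasl2*, *Ddx58*, *Ifih1* and *Eif2ak2* simply do not hold these letters.

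*Oas1a* stood at 1.02 CPM in naïve, 0.572 and 8.83 CPM in ta-non-activated, and 34.7 and 67.8 CPM in ta-activated cells of weeks 2 and 3. The week 3 fresh library was the highest of the fresh ones, and the naïve and week 2 fresh intervals overlapped. Against the fresh library of the same week, the cultured level was 60.6-fold higher in week 2 (95% interval 38.7 to 101) and 7.67-fold higher in week 3 (6.18 to 9.66). Of the windows of 90 bases at the 3′ end of *Oas1a* transcripts 53.6% occur unchanged in its neighbour *Oas1g*, so reads could be split or dropped between these copies and the value of *Oas1a* is uncertain to that extent.

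*Oas2* was the scarcest gene, with 0.154 CPM (5 UMIs) in naïve, 0 and 1.17 CPM in ta-non-activated, and 6.77 and 18.9 CPM in ta-activated cells. The count of 0 in week 2 allows a level of up to 0.0903 CPM, against which the cultured level was at least 74.9-fold higher. In week 3 the ratio was 16.1 (8.98 to 32.4). Its 11 fresh week 3 UMIs all lay in T-cell-like barcodes.

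*Oas3* behaved differently among the fresh libraries: the naïve level of 4.57 CPM was the highest, above 2.20 and 1.60 CPM in ta-non-activated cells. It reached 43.3 and 115 CPM in ta-activated cells, 19.7-fold (15.6 to 25.2) and 72.0-fold (43.6 to 129) over the fresh library of the same week. *Oas3* thus had the widest gap between cultured and fresh libraries with all barcodes counted. Without T-cell-like barcodes the computed gaps of *Oas2* (41.1 times), *Oasl2* (21.7) and *Oasl1* (13.9) exceeded that of *Oas3* (9.76). The week 3 fresh library then held 0 UMIs of *Oas2*, which allows up to 1.28 CPM, 4 of *Oasl2* and 2 of *Oasl1*. A gap wider than that of *Oas3* is thus not shown for *Oas2* and is uncertain for *Oasl2* and *Oasl1*.

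*Oasl1* (chr5:114923240-114937915) and *Oasl2* (chr5:114896936-114912234), neighbours on the plus strand, encode OAS relatives with ubiquitin-like ends, and the OASL1 protein is known to restrain translation of the interferon regulator IRF7. *Oasl1* stood at 0.556 CPM in naïve, 0.0903 CPM (3 UMIs) and 2.98 CPM in ta-non-activated, and 11.5 and 34.6 CPM in ta-activated cells. With so few fresh UMIs the week 2 ratio of 127 has an interval from 43.4 to 620, and the week 3 ratio was 11.6 (8.004 to 17.5). *Oasl2* stood at 2.41 CPM in naïve, 0.271 and 7.88 CPM in ta-non-activated, and 37.1 and 59.3 CPM in ta-activated cells. Both genes were lowest in the week 2 fresh library and highest in the cultured week 3 library, and their 3′ ends shared no window of 90 bases with each other or with the OAS genes compared.

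The RIG-I-like receptors split by role. *Ddx58* (RIG-I; chr4:40203773-40239828) and *Ifih1* (MDA5; chr2:62595798-62646255) bind RNA and signal through MAVS, whereas *Dhx58* (LGP2; chr11:100694884-100704271) lacks the signalling domain and tunes the other two. *Ddx58* had a sizeable level without culture, with 43.5 CPM in naïve and 21.0 and 20.8 CPM in ta-non-activated cells, against 72.7 and 134 CPM in ta-activated cells, the narrowest gap of the 10 genes. Its cultured level was 3.45-fold (3.19 to 3.75) and 6.47-fold (5.61 to 7.49) over the fresh library of the same week. The narrow gap of *Ddx58* rested on the naïve library, and with that library left out the narrowest gap was that of *Ifih1*, 2.29 times. *Ifih1* stood at 5.90 CPM in naïve, 3.49 and 11.3 CPM in ta-non-activated, and 25.8 and 68.7 CPM in ta-activated cells. *Dhx58* stood at 0.957 CPM in naïve, 0.662 and 5.22 CPM in ta-non-activated, and 21.8 and 44.3 CPM in ta-activated cells. For *Ifih1* and *Dhx58* the week 3 fresh library was the highest of the fresh ones. Without T-cell-like barcodes that held for *Dhx58* (2.56 CPM, with an interval overlapping the naïve one) but for *Ifih1* the naïve library was then the highest, with 6.02 CPM against 5.12 CPM in week 3.

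*Zbp1* (chr2:173206612-173218923) encodes a sensor of Z-form nucleic acid that can trigger cell death through RIPK3, and *Eif2ak2* (chr17:78852564-78882573) encodes PKR. *Zbp1* stood at 13.6 CPM in naïve, 51.9 and 20.5 CPM in ta-non-activated, and 408 and 448 CPM in ta-activated cells, and it supplied more UMIs in culture than any other of the 10 genes. *Eif2ak2* stood at 14.8 CPM in naïve, 22.3 and 18.0 CPM in ta-non-activated, and 113 and 163 CPM in ta-activated cells. In both genes the week 2 fresh library was the highest of the fresh ones, unlike in the OAS and OAS-like genes. The cultured level of *Zbp1* was 7.87-fold and 21.8-fold over the fresh library of the same week, that of *Eif2ak2* 5.09-fold and 9.05-fold. Without T-cell-like barcodes *Eif2ak2* stood at 163 CPM in cultured and 8.10 CPM in fresh week 3 cells. With 1 CPM added to each level, the median week 3 ratio of cultured over fresh among the 10 genes then went from 7.93 to 18.7. In week 2 this median went from 9.44 to 9.69.

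For the effect of culture on tumour-associated cells, counts summed per library were put through the quasi-likelihood test of edgeR, 2 ta-activated libraries against 2 ta-non-activated ones. The median log2 change of the 10 genes was 3.52, that of all 12643 genes tested was -0.02, and 2.55% of genes exceeded the median of the 10. The groups did not overlap for any of the 10, as for 32.4% of all genes in that direction, and the changes ran from 2.19 (SE 0.43) for *Ddx58* to 5.21 (SE 0.69) for *Oas3*. None passed the threshold of 0.05 after Benjamini-Hochberg adjustment by edgeR: adjusted p-values of the 10 genes ran from 0.243 to 0.303, and edgeR called 0 genes of all tested. At an unadjusted p under 0.05 stood 9 of the 10 genes, all but *Oasl2* (adjusted p = 0.303), beside 9.32% of all genes in the same direction. DESeq2 on the same counts called all 10 genes higher, beside 4.56% of all genes, with adjusted p-values from 1.48e-11 for *Oas3* to 0.0359 for *Oasl2*. Without T-cell-like barcodes edgeR again called none of the 10 (adjusted p-values from 0.231 to 0.336), and all 10 had an unadjusted p under 0.05, beside 7.98% of all genes in that direction. The log2 change then went from 4.04 to 6.72 for *Oasl1* and from 3.64 to 6.202 for *Oasl2*, which had 2 and 4 UMIs in the week 3 fresh library. *Oas2* had 0 UMIs in both fresh tumour libraries.

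The call depended on the fresh libraries used. Without the ta-non-activated week 2 library edgeR called 1646 genes (12.1%) and 4 of the 10, *Oas3*, *Oasl2*, *Zbp1* and *Eif2ak2*. Without the week 3 library, the one with the T-cell-like barcodes, it called 513 genes (3.85%) and 6 of the 10, *Oas1a*, *Oas2*, *Oasl2*, *Dhx58*, *Zbp1* and *Eif2ak2*. In these fits the lone fresh library is assumed to vary like the cultured ones.

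With the naïve library added to the fresh side (2 libraries against 3, the cultured ones being the same), the median log2 change of the 10 genes was 3.92 against -0.12 for all 12935 genes. The changes ran from 1.91 (SE 0.53) for *Ddx58* to 5.14 (SE 1.60) for *Oas2*. edgeR again called 0 genes, with adjusted p-values of the 10 genes from 0.266 to 0.455; all 10 had an unadjusted p under 0.05, beside 5.78% of all genes in the same direction. DESeq2 called 9 of the 10 higher, beside 2.33% of all genes, and *Ddx58* had an adjusted p of 0.0555.

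**Figure D2:**
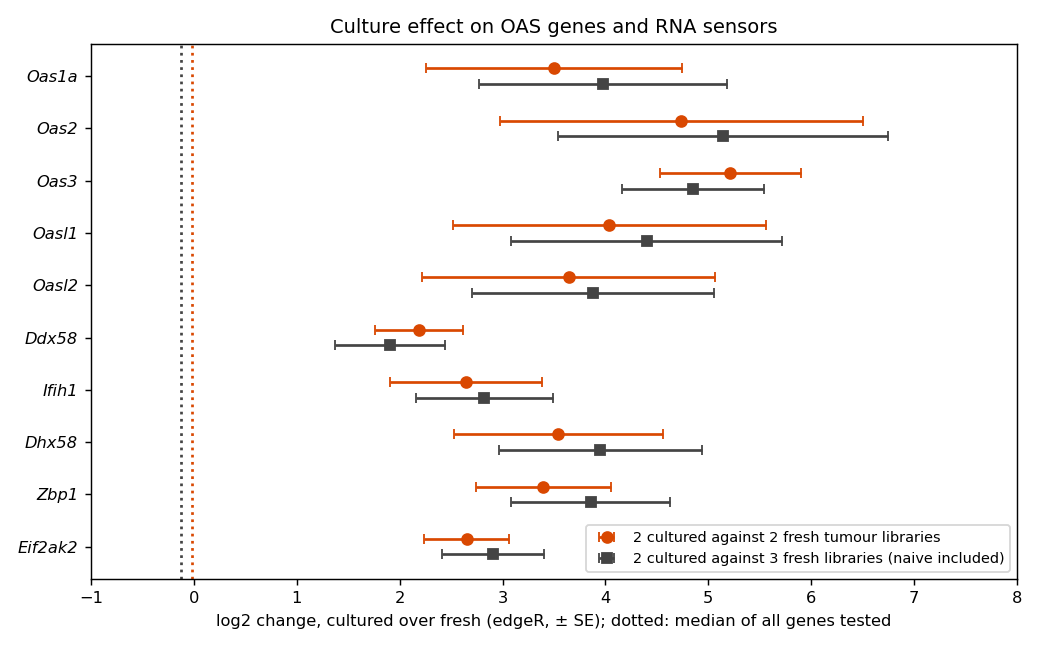
Log2 change of each gene from fresh to cultured ILC2s (edgeR, bars are ± SE), for 2 cultured against 2 fresh tumour libraries (circles) and against 3 fresh libraries with the naïve one (squares); dotted lines mark the median of all genes tested. All 10 genes lie above 1.5 in both comparisons, with wide errors for *Oas2*, *Oasl1* and *Oasl2*.

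Within the ta-activated cells all 10 genes were higher in week 3 than in week 2, as were 56.2% of all genes, and 8 of the 10 were at least 1.5-fold higher, as were 14.1%. The ratios ran from 1.10 for *Zbp1* and 1.44 for *Eif2ak2* to 3.005 for *Oasl1*. Each week has 1 cultured library, so this difference has no replicate check.

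The order of naïve and ta-non-activated ILC2s depended on the gene and the week. *Ddx58* and *Oas3* were higher in naïve cells than in both fresh tumour libraries, 2.07-fold and 2.08-fold over week 2 and 2.10-fold and 2.86-fold over week 3. *Zbp1* and *Eif2ak2* were lower in naïve cells than in both, with naïve over fresh ratios of 0.261 and 0.665 in week 2. Without T-cell-like barcodes the week 3 part of this turned for *Eif2ak2* (15.02 CPM in naïve and 8.10 CPM in week 3 fresh cells) and held for *Zbp1* (13.0 and 19.2 CPM), and *Ddx58* came closer, with 43.8 CPM in naïve and 32.4 CPM in week 3 fresh cells. In all, 8 of the 10 genes were higher in naïve than in week 2 fresh cells (59.4% of all genes) and 2 of 10 higher than in week 3 fresh cells (54.1%). At least 2-fold higher in naïve cells were 5 genes against week 2 (38.9% of all genes), among them *Oas2* with 5 UMIs against 0, for which the ratio to the level of 3 counts is only 1.71, and 2 against week 3 (31.5%), and at least 2-fold lower were 1 (20.5%) and 5 (20.6%). Without T-cell-like barcodes the count of genes higher in naïve cells than in week 3 became 5 of 10. The naïve table was written by another Cell Ranger version (6.0.0, against 3.0.2), and over all genes compared with the week 2 fresh library the naïve ratio rose with intron length (median log2 1.14 among genes with intron length above the upper quartile and -0.73 among those below the lower one). Of the genes higher in naïve cells than in both fresh tumour libraries, the introns of *Ddx58* total 29006 bases and those of *Oas3* 17495. Of those lower than in both, *Eif2ak2* has 24897 and *Zbp1* 8783. *Ifih1* has the longest introns of the 10 genes, 42293 bases, with naïve over fresh ratios of 1.69 in week 2 and 0.523 in week 3. *Oasl2*, with 8925 bases, had ratios of 8.89 and 0.306. The part of the table version in these differences was not tested.

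In the week 3 fresh library the 2 kinds of barcode differed gene by gene. T-cell-like barcodes held *Oasl2* at 9.93 CPM against 1.71 CPM in the other barcodes, *Ifih1* at 13.3 against 5.12 CPM and *Eif2ak2* at 21.3 against 8.10 CPM, each without overlap of the counting intervals. *Ddx58* ran the other way, with 16.9 against 32.4 CPM, also without overlap. *Zbp1* was alike in level in both, 21.0 and 19.2 CPM, with overlapping intervals. With T-cell-like barcodes left out of all 5 libraries, the gap between cultured and fresh libraries went from 5.78 to 41.1 times for *Oas2*, from 4.71 to 21.7 times for *Oasl2* and from 3.86 to 13.9 times for *Oasl1*, and from 1.67 to 1.66 times for *Ddx58*. The other barcodes of week 3 held 0 UMIs of *Oas2*, which at 3 counts allows 1.28 CPM, above the 1.17 CPM of all barcodes. A wider gap is thus not shown for *Oas2*. They held 4 UMIs of *Oasl2* (interval 0.465 to 4.37 CPM) and 2 of *Oasl1* (0.103 to 3.08 CPM), so the size of those changes is uncertain.

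**Figure D3:**
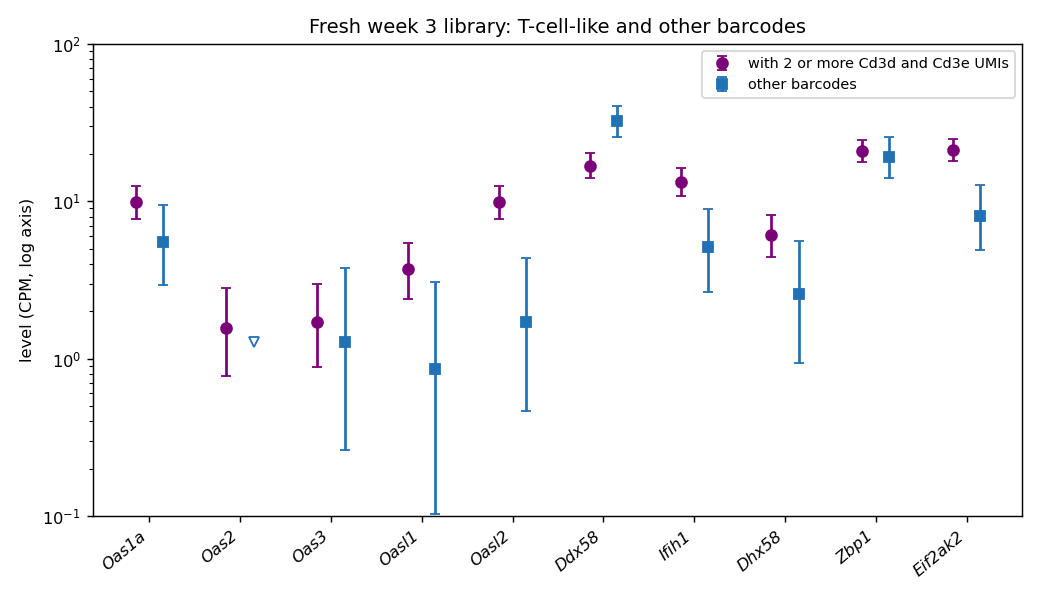
Level of each gene (CPM, log axis, exact 95% Poisson intervals) in the 850 T-cell-like barcodes and the 751 other barcodes of the ta-non-activated week 3 library; the open triangle is a count of 0 drawn at the level of 3 counts. *Ddx58* is higher in the other barcodes, whereas *Oasl2*, *Ifih1* and *Eif2ak2* are higher in the T-cell-like ones.

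More cells held a UMI of these genes in culture, *Zbp1* above all. Each cell with at least 2000 UMIs was thinned at random to 2000 UMIs, which left out 242 naïve, 14 and 106 ta-non-activated, and 73 and 108 ta-activated cells. At least 1 of the 10 genes was then detected in 14.4% of naïve, 20.5% and 17.5% of ta-non-activated, and 77.0% and 86.8% of ta-activated cells. At least 3 of them were detected in 5 of 6147 naïve cells (0.0813%), in 6 of 1809 and 7 of 1495 ta-non-activated cells (0.332% and 0.468%), and in 467 of 2822 and 1126 of 3714 ta-activated cells (16.5%, exact interval 15.2 to 18.0, and 30.3%, 28.8 to 31.8). The most genes found in 1 cell were 3 or 4 in the fresh libraries and 6 and 7 in the cultured ones. Free RNA can add UMIs to any droplet, and no cell type in these libraries is known to lack these genes, so its level could not be set from one.

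*Zbp1* was the most widely detected gene in culture, in 58.6% and 60.8% of thinned ta-activated cells against 2.51% of naïve and 11.2% and 4.55% of ta-non-activated cells. *Ddx58* was found in 7.69% of naïve, 5.20% and 5.69% of ta-non-activated, and 16.2% and 25.4% of ta-activated cells. *Oas2* was found in 0 of 1809 week 2 fresh cells, which at 3 counts allows a share of cells with a UMI at this depth of up to 0.166%, and in 2.41% and 4.44% of ta-activated cells. Without thinning *Zbp1* was detected in 6.198% of naïve, 42.0% and 9.43% of ta-non-activated, and 94.0% and 95.4% of ta-activated cells, at median depths of 4517, 16090, 4396, 13636 and 12296.5 UMIs.

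**Figure D4:**
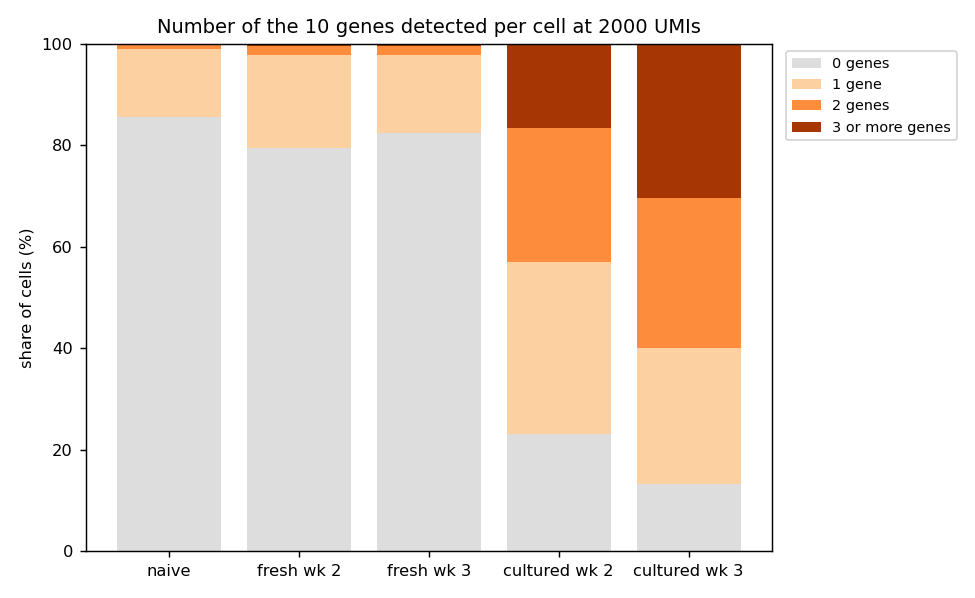
Share of cells (percent) in each library in which 0, 1, 2, or 3 or more of the 10 genes had a UMI after thinning to 2000 UMIs per cell. Cells with none make up 85.6% of the naïve library and 23.0% and 13.2% of the ta-activated libraries of weeks 2 and 3.

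Cultured cells were ranked within a library by the summed level of 8 other interferon-induced genes and divided into 5 equal bins. From the lowest to the highest bin the summed level of the 10 genes was 333, 684, 1008, 1192 and 1550 CPM in week 2 and 665, 977, 1224, 1447 and 1874 CPM in week 3. The genes differed in how steep this was. In week 2 *Oasl2* went from 2.59 to 142 CPM and *Oasl1* from 1.12 to 52.2 CPM, whereas *Eif2ak2* went from 73.3 to 174 CPM. The median depth fell over the same bins, from 28772 to 8249 UMIs in week 2 and from 17324 to 10052.5 UMIs in week 3. After thinning the ratio of the highest to the lowest bin was 3.06 and 2.54, against 4.65 and 2.82 before. The part of depth in this pattern was otherwise not tested.

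**Figure D5:**
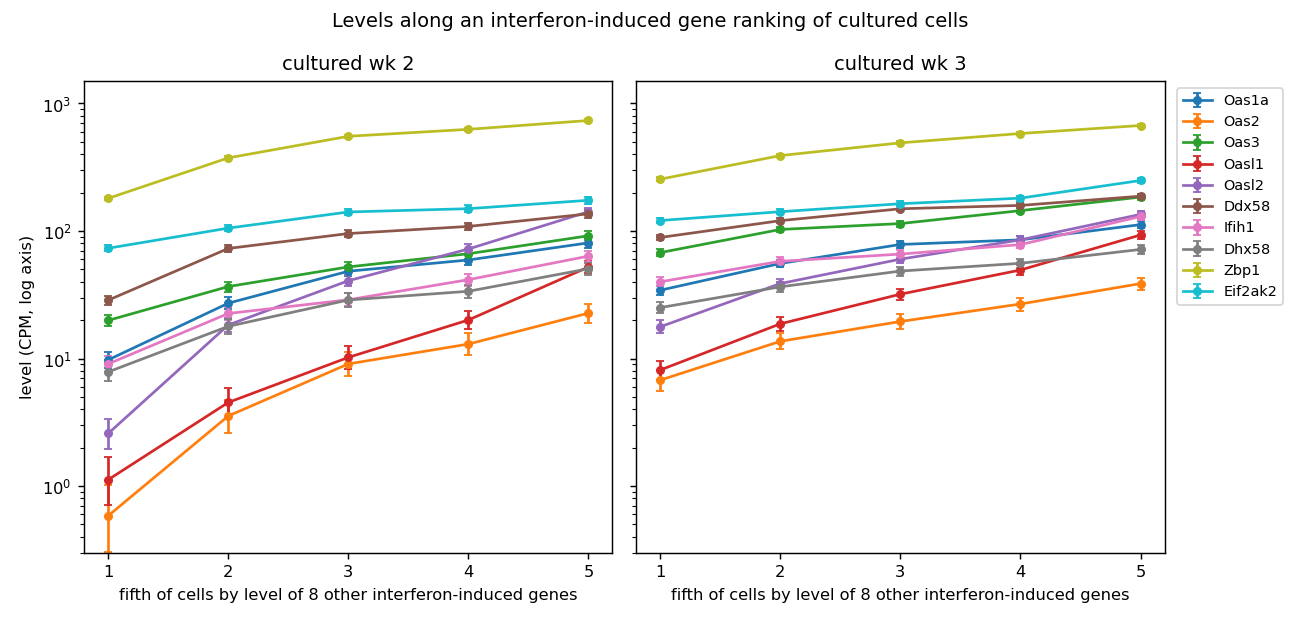
Level of each gene (CPM, log axis, exact 95% Poisson intervals) in 5 bins of ta-activated cells ranked by 8 other interferon-induced genes, from the lowest bin (1) to the highest (5), in weeks 2 and 3. Every line ends higher than it starts, most steeply *Oasl2*, *Oasl1* and *Oas2* in week 2, and *Zbp1* is the topmost line throughout.

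Of 2457 genes with at least 50 CPM in culture, those whose level across cells was most like the summed level of the 10 were *Ifit3*, *Isg15*, *Ifit1*, *Isg20* and *Ifi203*, with Pearson correlations in the less alike of the 2 cultured libraries from 0.541 to 0.453. The cells share a library and depth varies among them, so these values are a description. Cells in cycle had somewhat lower sums than other cells, 728 against 802 CPM in week 2 and 1035 against 1200 CPM in week 3. Their median depths were 25024 and 11463 UMIs in week 2 and 21702 and 11546 UMIs in week 3. In week 2 the counting intervals of *Oas1a*, *Oas2*, *Oas3*, *Oasl1* and *Dhx58* overlapped between cycling and other cells. The largest difference in level was that of *Zbp1*, lower in cycling cells with 371 against 430 CPM in week 2 and 383 against 473 CPM in week 3. *Eif2ak2* ran the other way in week 2, with 123 CPM in cycling and 108 CPM in other cells.

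Other genes of these pathways were taken from lists and read in the comparison of ta-activated with ta-non-activated cells, where edgeR called none of them after adjustment. Among the other Oas1 copies, 2 of 6 measured had enough counts for the test, and both had a positive change at an unadjusted p under 0.05: *Oas1c* (log2 2.23, SE 0.47) and *Oas1g* (log2 5.62, SE 1.76), which had 2 UMIs in the fresh tumour libraries and is the copy that shares its 3′ end with *Oas1a*.

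Of 11 genes of RIG-I-like receptor signalling, 2 had a positive change at an unadjusted p under 0.05 and none a negative one, beside 9.32% of all genes in the positive direction. That share is also the background for the lists that follow and for the Oas1 copies. The 2 genes were *Irf7*, the interferon-inducing transcription factor, and *Trim25*, the ubiquitin ligase that activates RIG-I. *Irf7* stood at 6.79 CPM in naïve, 6.83 and 26.6 CPM in ta-non-activated, and 221 and 449 CPM in ta-activated cells. *Mavs* itself lay between 4.79 and 6.16 CPM in all 5 libraries, with a log2 difference of 0.06 (SE 0.41), and *Irf3* and *Tbk1* had differences of 0.29 (SE 0.36) and 0.57 (SE 0.63).

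Of 8 partners of PKR and ZBP1, *Adar*, an editor of double-stranded RNA (log2 1.84, SE 0.40), and *Ripk3* (log2 1.78, SE 0.48) had a positive change at that unadjusted p. *Ppp1r15a*, which reverses the block on translation set by PKR, stood at 366 CPM in naïve, 14.7 and 474 CPM in ta-non-activated, and 21.9 and 19.4 CPM in ta-activated cells, so its fresh libraries lay on both sides of the cultured ones. Among the 3 tested genes of RNA-sensing Toll-like receptors, *Tlr3* and *Tlr7* had positive changes at that p (log2 6.51, SE 1.16, and 4.85, SE 1.33) and the chaperone gene *Unc93b1* had a difference of -0.27 (SE 0.65).

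The ISGF3 genes *Stat2* (log2 3.15, SE 0.37) and *Irf9* (1.495, SE 0.32) had a positive change at that unadjusted p. The receptor genes *Ifnar1* and *Ifnar2* had differences of 0.07 (SE 0.46) and 0.14 (SE 0.39). Transcripts of the type I and type III interferons searched were nearly missing. *Ifnb1*, *Ifna2*, *Ifna4*, *Ifnl2* and *Ifnl3* had 0 UMIs in all 5 libraries, which allows at most 0.0523 and 0.0485 CPM in the ta-activated libraries. All 18 type I interferon genes together had 4 UMIs in naïve, 2 and 0 in ta-non-activated, and 13 and 15 in ta-activated cells. *Ifng*, the type II interferon, stood at 7.87 CPM in naïve, 3.61 and 21.9 CPM in ta-non-activated, and 9.43 and 0 CPM in ta-activated cells, the last with 0 UMIs.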

How the data were processed

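What the authors deposited for 5 libraries of the 10x Genomics 3′ kit were tables of unnormalized UMI counts by gene and barcode, made with Cell Ranger (3.0.2 in 4 matrix headers and 6.0.0 in the naïve one; the processing notes also name Seurat 3 and GRCm38). A barcode was kept with 200 genes or more and a mitochondrial share below 5%. Doublets were not called; an alternative leaves out the top 5% of barcodes by UMIs. Counts were summed per library and tested with edgeR 4.0.16 (TMM, quasi-likelihood test, Benjamini-Hochberg adjustment) in R 4.3.3, or with DESeq2 1.42.0 as an alternative; Python 3.11.15 with scipy 1.17.1 gave the intervals (exact Poisson for levels, Clopper-Pearson for shares). A count of 0 is given the limit of 3 counts. Genes outside the 27726 common ones were left out. The edgeR step was run on simulated data with 200 genes changed. In the comparison of 2 libraries with 2 (12503 genes) it recovered 72% of genes at a log2 change of 2 and 99% at 3. With 2 against 3 (12745 genes) it recovered 89% and 100%. The simulation gave every gene the same assumed dispersion and changed only genes above a minimum mean level. The spread between the real libraries was not simulated, so these shares do not give the power of the tests above.

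The genes that may be named are the 10, every detected gene of the 6 pathway lists (the text gives those with an unadjusted p under 0.05 and examples of the rest, and some list genes are not reported here) and the 5 most alike in culture. The genes and lists were chosen with earlier results of these data known. Positions come from GENCODE M21 (GRCm38). Further alternatives were edgeR without TMM, no filter on low counts, a week block, 1 fit of all 5 libraries, all barcodes, a mitochondrial limit of 10%, no T-cell-like barcodes, other thinning, and each library left out in turn.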

Additional observations from a re-analysis of the deposited data

Results flagged for a closer look

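The barcodes left out by the filters on genes and mitochondrial counts also held transcripts of the 10 genes, in data that no comparison above used. In the ta-activated libraries their summed level was 741 CPM in week 2 (684 barcodes, exact Poisson interval 725 to 756) and 1051 CPM in week 3 (583 barcodes, 1030 to 1072). In the fresh libraries it was 111 CPM in the 564 naïve barcodes left out and 106 and 116 CPM in the 30 and 237 ta-non-activated ones of weeks 2 and 3. Beside the kept barcodes of the same library, the left-out ones were higher in naïve cells (87.4 CPM kept). They were lower in ta-activated cells (775 and 1154 CPM kept in weeks 2 and 3). The counting intervals did not overlap in these libraries, and they overlapped in both ta-non-activated ones.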

How the results depend on the processing

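In the comparison of ta-activated with ta-non-activated cells, the direction of all 10 genes was kept under all 13 alternatives; 110 of 130 gene values stayed on the same side of the threshold and 20 passed it, as did 9 of 130 in the comparison with all fresh cells. The number of genes called by edgeR in the first comparison, 0, became 1041 with DESeq2, which called 10 of the 10, and with 1 library left out it ran from 0 to 1646, with 0 to 6 of the 10 genes. The median log2 change of the 10 was 4.47 without T-cell-like barcodes and between 2.86 and 5.14 with 1 library left out. Against all fresh cells DESeq2 called 608 genes and 9 of the 10. There edgeR called 4 genes (*Nts*, *Pigz*, *Ifit3b* and *Ifi204*, named after their values were seen) when all genes with at least 1 count were tested, and 6 genes without T-cell-like barcodes, none of them among the 10. The median of the 10 was then 4.77, and between 3.46 and 4.799 with 1 library left out, when edgeR called 0 genes each time. With the week as a replicate block, edgeR called 0 genes in both comparisons and the medians were 4.11 and 4.17. Differences of same-week libraries from their group means correlated at -0.06 over 12643 genes. The fresh difference includes the T-cell-like barcodes of week 3, so this value cannot tell whether same-week libraries are paired. All 10 genes also lay above the fresh libraries compared under 4 other barcode settings, alternatives chosen after seeing the data.

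The log2 ratio of the summed level in naïve over week 2 fresh cells moved to -0.52 with TMM, and that over week 3 fresh cells turned to 0.16 without T-cell-like barcodes, where the main value was negative. The share of cells with 3 or more of the genes changed with the definition, in the order naïve, ta-non-activated weeks 2 and 3, ta-activated weeks 2 and 3. With at least 2 genes it was 0.960%, 2.27%, 2.14%, 42.9% and 60.02%, with thinning to 1000 UMIs 0.0158%, 0%, 0.0631%, 4.09% and 8.79%, and with no thinning 1.05%, 10.4%, 2.50%, 80.6% and 91.5%. Without T-cell-like barcodes the week 3 fresh share was 0.154%. The median correlation between pairs of the 10 genes over cultured cells fell from 0.150 and 0.144 to 0.042 and 0.039 after thinning, and the ratio of the highest to the lowest interferon bin to 3.06 and 2.54. Causes were not tested. Depth limits the values below a few CPM, above all those of *Oas2* and *Oasl1* in fresh cells.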
